A study of Homo sapiens with 16 samples.

Results

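The regions described here are the places on the genome where anti-MAFG gave a peak in every library of a melanoma line, whether or not the cells carried extra MAFG. WM164 is an established human melanoma cell line, and the cells overexpressed either GFP, here called GFP cells, or MAFG, here called MAFG cells. Occupancy was profiled by CUT&RUN, in which an antibody brings a nuclease to its target in isolated nuclei and the released fragments are sequenced. Each line had 3 libraries with anti-MAFG, 3 with anti-MITF and 1 with anti-H3K4me3. The labels give no vector, promoter or clone for either transgene, no treatment beyond the overexpression, and do not say whether the replicates were separate cultures, so the spread between replicates may be technical. The peaks of the 6 anti-MAFG lists on chromosomes 1 to 22 and X were merged where they overlapped, giving 34223 regions. Of these, 612 regions (1.79%) held a peak of all 6 lists and are called constant.

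MAFG is one of the small MAF proteins, which have a DNA-binding leucine zipper but no activation domain. They bind as dimers, with themselves or with partners such as NRF2 (NFE2L2), BACH1 and BACH2, at antioxidant response elements and the related MAF recognition elements, and so sit at genes of redox defence, heme and iron handling. MITF is the basic helix-loop-helix leucine zipper factor that directs the pigment cell lineage and binds E-boxes. H3K4me3 is a histone mark found at active promoters.

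The regions were chosen by the presence of anti-MAFG peaks in the 6 lists, so their anti-MAFG values are given as a description and were not tested. The anti-MITF and H3K4me3 lists were not used by the rule. Peak numbers differed widely between the lines: the anti-MAFG lists held 26221, 23409 and 14879 peaks in GFP cells, against 1836, 1849 and 2818 in MAFG cells, and the anti-MITF lists 19828 to 20117 and 2116 to 2495. The H3K4me3 lists held 13579 and 11580. Read totals are not in the lists. Solving the authors' fold and p for fragments gave depths of 1.23 to 2.42 fragments per kb over the 6 anti-MAFG libraries. These depths assume that the lowest background, divided by the library's scale, spans the shortest peak. That scale, which multiplies fragments into pileup, was 0.969, 1.0 and 1.0 in GFP cells, against 0.484, 0.637 and 0.516 in MAFG cells. The lowest pileup of a called peak was 7, 5 and 5 fragments, against 11, 8 and 8. In the anti-MITF libraries the scale was 1.0 in GFP cells and 0.452 to 0.561 in MAFG cells. The part of the scale in the peak numbers was not tested. H3K4me3 lay no more than 1000 bp from either end of 6 of 8 melanocyte and melanoma marker genes in both lines, with DCT and TYRP1 the exceptions, and at 0 of 13 markers of keratinocytes, lymphocytes, fibroblasts, endothelium and hepatocytes.

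At the promoters inside constant regions, sequences that match the sites of small MAF and AP-1 proteins can be read directly. The promoter of NQO1, a quinone reductase of the antioxidant response, is shown because it holds a letter match to a long antioxidant response element, and those of NFIA and MITF because the former is among the strongest constant regions and the latter is the lineage gene. Each run is the 250 bases before a RefSeq start site (GRCh38.p14), read 5′ to 3′ in the direction of the gene, and capitals mark a match on either strand to the long element, which is the core TGANNNNGC with the letters TGC directly before it.
NQO1, chr16:69726561-69726810, minus strand: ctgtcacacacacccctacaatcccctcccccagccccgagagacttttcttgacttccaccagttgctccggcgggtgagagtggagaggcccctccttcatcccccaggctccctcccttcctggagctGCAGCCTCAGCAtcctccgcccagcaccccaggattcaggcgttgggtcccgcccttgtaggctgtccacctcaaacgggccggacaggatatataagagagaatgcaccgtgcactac
NFIA, chr1:61076977-61077226, plus strand: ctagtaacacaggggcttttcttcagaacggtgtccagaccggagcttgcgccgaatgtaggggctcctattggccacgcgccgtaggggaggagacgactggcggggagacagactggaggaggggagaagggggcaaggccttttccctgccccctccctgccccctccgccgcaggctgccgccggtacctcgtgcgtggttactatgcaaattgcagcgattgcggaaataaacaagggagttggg
MITF, chr3:69739214-69739463, plus strand: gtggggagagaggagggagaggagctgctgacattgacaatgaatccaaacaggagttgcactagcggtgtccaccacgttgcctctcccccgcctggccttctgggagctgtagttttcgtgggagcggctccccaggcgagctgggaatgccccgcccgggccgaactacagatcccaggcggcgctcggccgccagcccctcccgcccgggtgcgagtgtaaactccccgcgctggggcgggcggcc
The NQO1 run holds 1 match, on the strand opposite to the gene. Bases of the NQO1 region outside the promoter windows were not read, so other sites there are not described. The NFIA and MITF runs hold none of the 5 motifs searched, which says only that these letters are not in these windows. The MITF run lies at the upstream end of the gene and does not stand for any other start site of MITF.

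In the RefSeq promoter table, whose windows run from 250 bases before to 50 after a start site, 90 windows lay wholly inside 59 constant regions. The long element was in 7 of the 90 windows (7.78%), against 2.04% of the 1956 windows inside the other regions of GFP cells (defined with the gene context) and 1.47% of all 34789 windows. Because windows of neighbouring or divergent genes share bases, the 7 windows come down to 4 regions, those at H4C16, at CCDC122 and LACC1, at FMN1, and at NQO1. The AP-1 element TGACTCA, searched with its other strand TGAGTCA, was in 13 windows (14.4%) of 12 regions, against 4.65% and 4.93%. The short core TGANNNNGC, which is part of the long element and also covers TGACTCAGC, was in 54.4%, against 44.4% and 41.8%. The MITF-type E-boxes CACGTG and CATGTG were in 5.56% and 7.78% of the windows inside constant regions, against 7.004% and 7.16% of the windows inside the other regions of GFP cells and 7.24% and 11.1% of all windows. A match is a description of the letters, not a measured site. A few of these matches are shown with 15 flanking bases, the first pair for the long element and the others for TGACTCA, in capitals.
LACC1, chr13:43879508-43879549, plus strand: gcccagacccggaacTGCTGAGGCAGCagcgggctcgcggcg
FMN1, chr15:33068327-33068368, minus strand: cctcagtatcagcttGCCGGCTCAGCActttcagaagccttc
LBR, chr1:225428851-225428887, minus strand: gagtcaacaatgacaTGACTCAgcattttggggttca
ZBTB20, chr3:114625014-114625050, minus strand: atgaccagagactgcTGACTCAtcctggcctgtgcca
SCAND1, chr20:35955160-35955196, minus strand: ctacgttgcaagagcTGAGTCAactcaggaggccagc
LACC1 codes for an enzyme of innate immune cells, FMN1 for an actin-nucleating formin, LBR for the lamin B receptor of the inner nuclear membrane, and ZBTB20 for a zinc finger repressor.

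The constant regions made up a small share of the GFP-cell peaks and a large share of the MAFG-cell peaks. They were 5.89% of the 10388 regions called in all 3 GFP-cell libraries and 61.6% of the 993 called in all 3 MAFG-cell libraries. Most merged regions were seen in few libraries: 14376 were called in exactly 1, 8539 in 2, 9081 in 3, 1026 in 4 and 589 in 5. Of the 589 just outside the rule, GFP-cell library 1 lacked the peak in 12, library 2 in 26 and library 3 in 126, and MAFG-cell libraries 1, 2 and 3 lacked it in 132, 176 and 117.

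The authors' fold enrichment, a linear ratio of pileup to background at the peak, had a median over the 612 members of 10.5, 9.03 and 7.38 in the libraries of GFP cells and of 8.55, 7.80 and 8.997 in those of MAFG cells. Over whole lists the medians were 6.71, 6.004 and 5.77, and 7.03, 6.83 and 7.19. Regions called in 5 libraries had medians of 8.40, 7.66 and 6.82 in GFP cells and of 6.94, 6.83 and 7.79 in MAFG cells. The median member stood at percentile 86.5, 84.8 and 75.05 of its GFP-cell list and at 69.0, 66.3 and 74.6 of its MAFG-cell list. The median member was thus above the middle of all 6 lists, and the weakest member was close to the lowest peak of a list in each library. Members with a −log10 q under 3 numbered 4, 4 and 34 in GFP cells, against 8, 19 and 11 in MAFG cells, so GFP-cell library 3 held the most marginal calls.

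**Figure D1:**
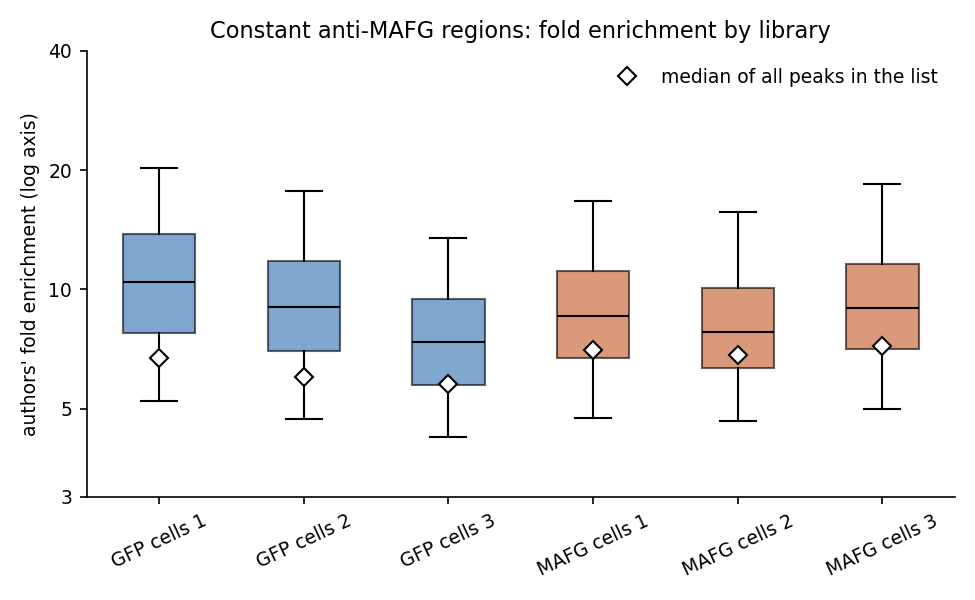
Authors' fold enrichment of the 612 constant regions (vertical log axis) in each anti-MAFG library; boxes show the quartiles and median, whiskers the 5th and 95th percentiles, and diamonds the median of all peaks in the list. The members' median lies above the diamond in all 6 libraries, with the wider gaps in GFP-cell libraries 1 and 2.

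The members were wide, with a median of 1672.5 bp (607 to 7426 bp). In 561 of the 612 (91.7%) some bases were covered by peaks of all 6 lists, with a median of 431 bp over these 561. In the other 51 the 6 peaks were joined only through one another. Summits of the same member lay a median of 87.5 bp apart between libraries of GFP cells, 75 bp within MAFG cells and 97.5 bp between the lines. In 69 members the 6 summits spread over more than 1000 bp.

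Most constant regions lay away from promoters. Of the 612, 65 (10.6%, exact 95% binomial interval 8.29 to 13.3%) had a protein-coding gene's end within 1000 bp, against 16.6% of all merged regions. The intervals given for shares of regions cover counting error only. The main comparison set, called the other regions of GFP cells, was the 9776 regions called in all 3 GFP-cell libraries but not in all 6, and 18.1% of these (17.3 to 18.8%) lay at a gene end. Among the 381 other regions of MAFG cells, called in all 3 MAFG-cell libraries but not in all 6, the share was 7.61% (5.16 to 10.7%). A RefSeq start site of any gene lay in 68 members (11.1%), against 9.79% of all merged regions and 15.3% of the other regions of GFP cells. The median distance to the nearest protein-coding gene end was 35607 bp, and 259 members (42.3%) were more than 50000 bp away. The summit fell inside a protein-coding gene in 330 members (53.9%, against 53.7% of all merged regions), in only a lncRNA gene in 87 and in neither in 195. Gene-body placement was therefore close to that of anti-MAFG regions at large, while placement at gene ends was lower.

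H3K4me3 marked a minority of the constant regions in both lines. A peak of the GFP-cell H3K4me3 list overlapped 138 (22.5%, 19.3 to 26.1%), against 24.6% of all merged regions and 27.8% of the other regions of GFP cells. A peak of the MAFG-cell list overlapped 101 (16.5%, 13.6 to 19.7%), against 19.8% and 21.6%. In the other regions of MAFG cells both lists gave 7.87%. Both lists marked 98 members, the GFP-cell list alone 40 and the MAFG-cell list alone 3. With 1 H3K4me3 library per line, the difference between lines has no replicate check and was not tested. The median H3K4me3 fold enrichment at marked members was 26.4 in the GFP-cell list (28.3 over the whole list) and 17.1 in the MAFG-cell list (15.3). Of the 141 members marked in either line, 59 lay within 1000 bp of a protein-coding gene end, and of the 471 unmarked, 6 did.

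**Figure D2:**
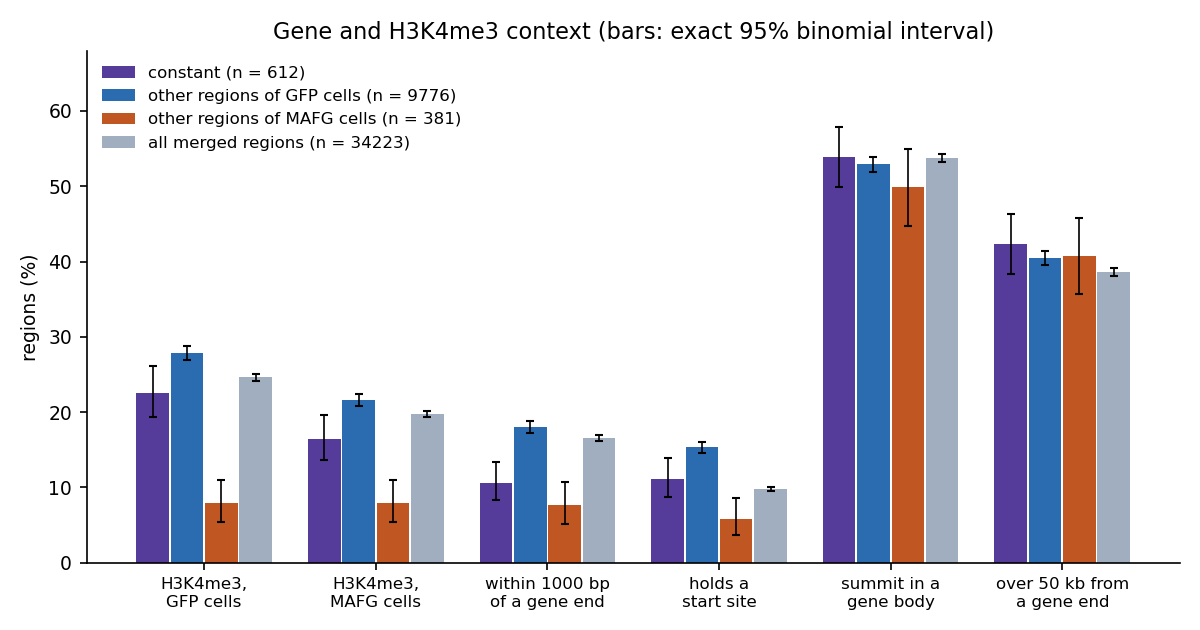
Share of regions (vertical axis, %) with an H3K4me3 peak or in each gene context, for the constant regions and 3 comparison sets; error bars are exact 95% binomial intervals. Constant regions lie at 10.6% within 1000 bp of a gene end, below the other regions of GFP cells (18.1%) and all merged regions (16.6%), and the sets lie close together for gene bodies.

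Members were unevenly spread over the chromosomes. Chromosomes 2 and 3 held 75 each, chromosome 9 held 3 and the X chromosome 0, although 179 and 83 regions were called there in all 3 GFP-cell libraries. Of the GFP-cell regions called in all 3 libraries, 9.93% were constant on chromosome 20 and 1.68% on chromosome 9. The 10 Mb windows with the most members were the neighbouring pair on chromosome 3 from 60 to 80 Mb, with 41 members (6.70%), against 2.14% of the other regions of GFP cells. There, 16.4% of the 250 regions called in all 3 GFP-cell libraries were constant, against 5.63% elsewhere. The local background recovered from the authors' values was 3.06 to 6.46 times as high in this stretch as elsewhere in every anti-MAFG library, and 3.08 to 5.00 times in the anti-MITF libraries, and its part in the density of members was not tested. The stretch holds MITF, MAGI1 and PRICKLE2. PRICKLE2, a planar cell polarity gene, held 5 members in its body, the highest number for any gene, and 3 members each lay in the bodies of MITF, NFIA, EFNA5, FRMD6, PDE4B and UNC5C. In all, 33 protein-coding genes held more than 1.

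Genes of the antioxidant response were represented by 3 classical targets. Of 19974 protein-coding genes, 1.83% had a constant region in the body or within 5000 bp. Of 30 listed antioxidant genes, NQO1, SLC7A11 and TXNRD1 had one, while 7 had a region called in all 3 GFP-cell libraries (21.9% of all genes) and 7 one called in all 3 MAFG-cell libraries (2.86%). At the NQO1 start site (chr16:69724747-69727594, which holds the match printed above and the start of its divergent lncRNA NQO1-DT) the fold was 10.7, 7.51 and 5.58 in GFP cells, against 6.66, 6.53 and 13.2 in MAFG cells. The 2 lines overlapped, with MAFG-cell library 3 the highest. H3K4me3 was present in both lines there, and anti-MITF gave a peak in 3 of 3 libraries of GFP cells but 0 of 3 of MAFG cells.

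SLC7A11, the cystine importer that feeds glutathione synthesis, had its region over the gene end (chr4:138241375-138244184), with folds of 10.99, 7.10 and 7.25 in GFP cells and of 5.49, 5.85 and 5.49 in MAFG cells. All 3 MAFG-cell values were lower. Its ranks among the 612 members were also apart, at 278, 452 and 309.5 against 546, 513 and 564.5. TXNRD1, the cytosolic thioredoxin reductase, had its region in the gene body, 3354 bp from the nearer gene end (chr12:104219133-104220161). The folds there were 13.4, 8.54 and 7.64 in GFP cells, against 12.9, 13.1 and 9.41 in MAFG cells, and overlapped. No H3K4me3 peak met the TXNRD1 region in either line.

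Among 10 small MAF genes and partners, BACH2, a heme-sensing repressor that pairs with small MAFs, was the gene with constant regions, and both lay in its body. The stronger one (chr6:90283989-90286999, with the 6 summits spread over 1432 bp) had folds of 21.8, 17.1 and 10.9 in GFP cells and of 14.8, 14.8 and 11.6 in MAFG cells. Its lower neighbour (chr6:90226377-90227866) had 10.7, 6.14 and 6.12, and 8.24, 5.91 and 5.66. Both overlapped between the lines. None of 10 AP-1 genes or of 11 genes of dedifferentiated melanoma had a constant region (1.83% of all genes did), and 2 and 3 of them had a region in all 3 GFP-cell libraries (21.9% of all genes). These counts lie near the shares of all genes.

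Of 18 pigment and melanocyte genes, MITF and MREG had constant regions. MREG, melanoregulin, acts in melanosome transfer, and its region, which covered a RefSeq start site listed for the gene away from both gene ends (chr2:216011589-216013618), had folds of 9.40, 9.01 and 8.24 in GFP cells and of 6.17, 9.72 and 5.61 in MAFG cells. This is one of the regions in which no base was covered by all 6 lists.

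MITF had 4 constant regions, 1 over a start site at the upstream end of the gene and 3 in the body, out of 14 regions at the gene called in all 3 GFP-cell libraries. At the start site (chr3:69738316-69742273, the promoter printed above) the fold was 13.6, 11.8 and 9.64 in GFP cells, against 5.43, 6.14 and 5.67 in MAFG cells. The strongest region of the body (chr3:69820112-69824633) gave 17.8, 20.2 and 18.2 against 8.90, 8.19 and 5.32, and the one at chr3:69838211-69840614 gave 13.5, 11.9 and 8.55 against 4.42, 3.65 and 4.94. In these 3 the values of the lines did not overlap and were higher in GFP cells. In the remaining one (chr3:69786939-69788128) they overlapped, at 11.5, 8.19 and 5.90 against 5.82, 6.61 and 7.06. Anti-MITF gave a peak in all 6 libraries at the 3 body regions, and at the start site in 3 of 3 libraries of GFP cells but 0 of 3 of MAFG cells. H3K4me3 marked the start site in both lines, with folds of 35.9 and 17.7, and none of the body regions. The MITF gene lies in the stretch of chromosome 3 with the raised background. The 6 summits spread over 2371 bp at the start site and over 1020 bp at chr3:69838211-69840614. The folds of these regions need not come from the same position in each library.

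**Figure D3:**
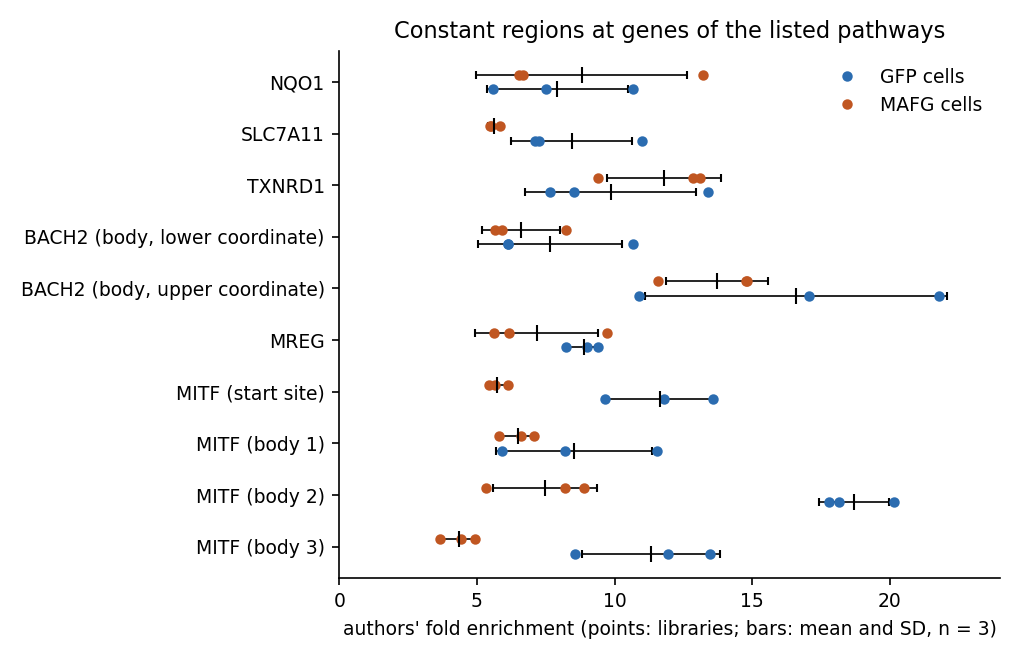
Authors' fold enrichment (horizontal axis, linear ratio) of the 10 constant regions at listed genes; points are single libraries, and ticks with bars the mean and SD (n = 3 for each line). The start site and 2 of the 3 body regions of MITF, and SLC7A11, have all GFP-cell values above all MAFG-cell values.

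The strongest constant regions lay outside promoters about as often as the constant regions at large. For the ranks, the strongest overlapping peak gave each member a value in each library, and the 612 members were ranked from 1, the strongest, so that lists of different lengths could be set side by side. The 10 best by mean rank over the 6 libraries had folds from 10.9 to 34.1 in GFP cells and from 10.8 to 43.8 in MAFG cells. Of these 10, 1 lay within 1000 bp of a protein-coding gene end, against 10.6% of the 612. The best mean rank, 17.2, belonged to a region in the body of LAMA2, the laminin α2 chain of basement membranes (chr6:129499968-129502586), with folds of 18.1, 20.7 and 14.1 in GFP cells and of 28.1, 23.5 and 32.8 in MAFG cells. A region in IPO11, a nuclear import receptor (chr5:62442932-62444169), ranked 2 in all 3 GFP-cell libraries, with folds of 33.5, 29.6 and 21.5, and 11, 26 and 97 in MAFG cells.

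The best region of MAFG cells was an intergenic one near CADPS, a vesicle priming factor (chr3:62937686-62943678). Its ranks there were 2, 2 and 1, with folds of 38.0, 30.7 and 43.8, against 15.4, 14.95 and 15.8 in GFP cells. A neighbour at chr3:62964502-62969750, whose 6 summits spread over 3247 bp, had 23.6, 11.3 and 25.8 against 16.7, 16.4 and 16.2. Both carried anti-MITF peaks in all 6 libraries. The best region of GFP cells lay in the lncRNA gene GACAT3, with MYCN, a MYC family gene, as the nearest protein-coding gene at 122195 bp (chr2:16069199-16071370). It had folds of 34.1, 25.6 and 29.9 in GFP cells and of 12.8, 10.8 and 18.6 in MAFG cells.

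NFIA, a nuclear factor I transcription factor, was the one gene of the 10 whose region covered a protein-coding start site (chr1:61076437-61080582). Its folds were 21.1, 21.3 and 15.4 in GFP cells, against 13.4, 16.3 and 16.8 in MAFG cells, and its H3K4me3 fold was 77.9 and 6.54. The other 4 lay near ENDOD1, 84868 bp from ARHGAP5, in ABHD12 (a lysophospholipase) and 201623 bp from SPRY2 (an inhibitor of receptor tyrosine kinase signalling). Anti-MITF gave a peak in all 3 GFP-cell libraries at 9 of the 10 (56.0% of the 612) and in all 3 MAFG-cell libraries at 4 (16.7% of the 612). The region in ABHD12 (chr20:25309291-25311195) had anti-MITF folds of 22.7, 26.0 and 14.7 in GFP cells, against 25.2, 23.4 and 27.5 in MAFG cells.

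Although the same regions were called in both lines, their order differed between them. Over the 612 members, the Spearman rank correlation of the folds was 0.54 to 0.71 (mean 0.64) between libraries of one line and 0.05 to 0.12 (mean 0.08) between libraries of different lines. Members are not replicates and libraries of a line share their cells, so these are descriptions. In 139 members (22.7%) all 3 ranks were better in MAFG cells and in 137 (22.4%) all 3 were better in GFP cells, while in 336 the ranks overlapped. Ranking within the 612 holds the counts of the 2 directions near balance. Placed by percentile in the whole list of each library, 83 members stood better in MAFG cells and 192 in GFP cells. Of the best 102 of each line, 24 were shared (23.5% of each). The median difference between a member's mean ranks in the 2 lines was 149 places, and the median SD of its ranks within a line was 80.6.

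**Figure D4:**
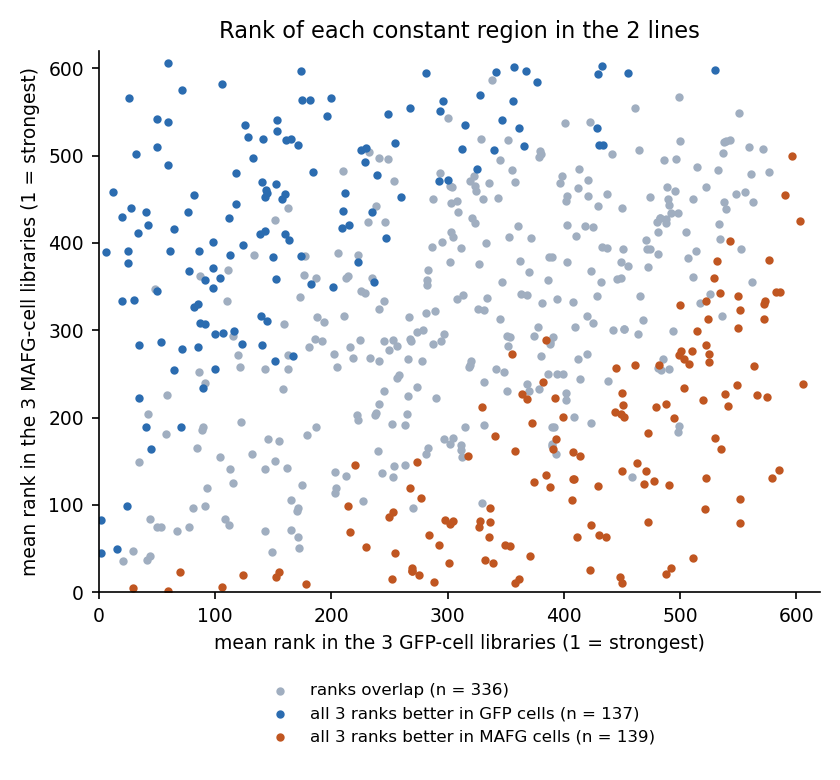
Mean rank of each of the 612 constant regions in the 3 GFP-cell libraries (horizontal axis) and the 3 MAFG-cell libraries (vertical axis), with 1 the strongest; colours mark members whose 3 ranks in one line were all better than the 3 in the other. The points fill most of the square, with 139 members better in MAFG cells toward the lower right and 137 better in GFP cells toward the upper left; ranks within the set keep these counts near balance, and by percentile in the whole lists they were 83 and 192.

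The 8 members that gained the most places in MAFG cells lay near or in TMEM108, CLIP4, ANKRD44, SLC7A8, SEMA3A, DPYSL3, HM13 and HAPSTR1. Their folds were 3.41 to 8.98 in GFP cells and 10.1 to 25.4 in MAFG cells. The ANKRD44 region (chr2:197112765-197114002), in a gene for a regulatory subunit of protein phosphatase 6, went from folds of 6.21, 6.14 and 4.10 to 14.3, 13.3 and 13.2. The SLC7A8 region, over a start site of this neutral amino acid transporter (chr14:23153967-23156307), went from 8.98, 6.59 and 3.77 to 15.8, 15.4 and 25.4. The 6 summits at SLC7A8 spread over 1477 bp, and 63 bp were covered by all 6 lists. The values there need not come from the same position in each library. The region near SEMA3A, a secreted guidance cue (chr7:83882006-83883334), went from 6.62, 3.57 and 3.41 to 12.03, 11.7 and 11.05. Recovered fragments, before scaling, went from 31, 18 and 10 to 35, 25 and 29 at ANKRD44. At SLC7A8 they went from 19, 11 and 7 to 41, 29 and 60. The SEMA3A region went from 40, 20 and 12 fragments to 29, 23 and 25. The scaled background went from 4.0, 2.09 and 1.69 to 0.255, 0.271 and 0.206 at ANKRD44. At SLC7A8 it went from 1.16, 0.821 and 1.12 to 0.319, 0.265 and 0.258. Near SEMA3A it went from 5.0, 4.88 and 2.81 to 0.249, 0.339 and 0.258. None of the 8 carried H3K4me3 in either line, against 23.04% of the 612 that did, 4 had no anti-MITF peak in any library (16.2% of the 612), and 1 had one in all 3 GFP-cell libraries (56.0% of the 612).

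The 8 that lost the most places lay near or in RNF216, MIDEAS, MAGI1, PRICKLE2, JAZF1, SLC39A11, H2AJ and KBTBD8. Their folds were 9.07 to 25.6 in GFP cells and 3.09 to 8.24 in MAFG cells. The steepest loss was beside the zinc transporter gene SLC39A11, in the lncRNA gene LINC00511 (chr17:72631187-72633279), from ranks of 22, 119 and 38 to 595.5, 612 and 610. This region had no base covered by all 6 lists. MIDEAS, a scaffold of a histone deacetylase complex (chr14:73723532-73725085), went from folds of 25.6, 15.2 and 13.6 to 5.34, 4.64 and 8.24. The region at the histone variant gene H2AJ (chr12:14776443-14778361) went from 19.8, 12.9 and 18.4 to 3.97, 7.48 and 4.84. Recovered fragments there, before scaling, went from 40, 21 and 28 to 39, 42 and 45. The scaled background went from 1.005, 0.71 and 0.578 to 4.0, 2.712 and 4.0. At MIDEAS, fragments went from 56, 27 and 22 to 20, 13 and 30, and background from 1.162, 0.843 and 0.69 to 1.0 each. Beside SLC39A11, fragments went from 62, 29 and 26 to 25, 48 and 51. Background there went from 1.884, 1.395 and 1.124 to 1.914, 9.0 and 6.0. All 8 carried anti-MITF in all 3 GFP-cell libraries, as did 56.0% of the 612, and 2 did in any MAFG-cell library. H3K4me3 from the list of GFP cells met 4 of the 8 (22.5% of the 612) and that of MAFG cells 0 (16.5%).

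A fold rests on the background as well as on the fragments. The recovered background is in scaled pileup units, and 1 unit stands for more fragments where the scale is lower. Averaged over the MAFG-cell libraries, it had a median of 1.51 at the 137 members ranked better in GFP cells. At the 139 ranked better in MAFG cells the median was 0.498. In the GFP-cell libraries, whose scales were higher, the medians were 1.17 and 1.33. Members ranked better in GFP cells were also wider, with a median of 1956 bp against 1543 bp. The part of these differences in the ranks was not tested. Of the 41 members in the chromosome 3 stretch, 19 were ranked better in GFP cells and 6 in MAFG cells.

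Anti-MITF peaks met most constant regions in GFP cells and a minority in MAFG cells. In single libraries the share was 72.1, 70.6 and 67.97% in GFP cells (mean 70.2 ± 2.07%, SD, n = 3), against 25.7, 23.4 and 25.3% in MAFG cells (24.8 ± 1.24%, SD, n = 3). The lines did not overlap, and the difference was −45.4 percentage points (SE 1.39). A two-sided exact permutation test gave p = 0.1, the smallest that 3 against 3 libraries allow, and 0.12 after Benjamini-Hochberg adjustment over the 6 tests made. This difference moved with the length of the lists. With an equal number of the best anti-MITF peaks in each library the direction turned, to 15.6% for GFP cells against 22.5% for MAFG cells, a difference of 6.97 points (exact permutation p = 0.1).

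The constant regions carried anti-MITF more often than the other regions of GFP cells within each of the 6 libraries. In the latter the share (mean ± SD, n = 3) was 64.8 ± 0.506% for GFP cells and 8.72 ± 0.622% for MAFG cells. The mean difference within libraries was 10.8 percentage points, from 2.71 to 7.31 in libraries of GFP cells and from 15.3 to 16.5 in those of MAFG cells. An exact sign-flip permutation test, two-sided over the 6 libraries, gave p = 0.03125, the smallest it allows, and 0.0625 after adjustment, which misses 0.05. In a 500 bp window around the anti-MAFG summit, which removes the difference in width, it was 9.66 points, with the same unadjusted p. With equally long anti-MAFG lists 91 regions were constant, and the difference was 8.95 points with an exact permutation p of 0.21875. It then came from MAFG cells (33.3% of constant against 13.5% of other regions), and for GFP cells the direction turned (87.2% against 89.2%). The other regions of GFP cells are those that lack an anti-MAFG peak in at least 1 MAFG-cell library. Both the direction and the size of the difference in MAFG cells therefore go with how the comparison set was chosen. The p over the 6 libraries rests in part on these 3 MAFG-cell libraries. The 3 GFP-cell libraries alone are too few for such a test to reach 0.05. As a ratio, the share of constant over other regions (mean ± SD, n = 3) was 1.08 ± 0.0377 for GFP cells, against 2.84 ± 0.0682 for MAFG cells. The difference between lines on the log2 scale was 1.39 (SE 0.0355), with an exact permutation p of 0.1, again the smallest allowed, and 0.12 after adjustment. Its direction depended on the comparison set: in the other regions of MAFG cells the share was 18.1 ± 0.946% for GFP cells and 8.31 ± 0.802% for MAFG cells (SD, n = 3), and over these the ratio (mean ± SD, n = 3) was 3.88 ± 0.169 for GFP cells, above the 2.9997 ± 0.326 for MAFG cells; this reverse order was not tested.

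Where both factors gave a peak, the summits were close. The median distance from the anti-MITF to the anti-MAFG summit was 99.0 bp in GFP cells and 111 bp in MAFG cells, and 50.3% and 47.9% of the pairs lay within 100 bp. Anti-MITF peaks at constant regions had median folds of 7.92, 7.40 and 7.67 in GFP cells, against 6.48, 5.99 and 6.23 over the whole lists. In MAFG cells they had 6.97, 7.26 and 6.96, against 6.70, 6.77 and 6.57.

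Anti-MITF was present in all 6 libraries at 102 constant regions (16.7%), against 2.78% of all merged anti-MAFG regions and 4.84% of the other regions of GFP cells. It was in all 3 GFP-cell libraries at 343 (56.0%, against 26.6% of all merged regions) and in all 3 MAFG-cell libraries at 102 (16.7%, against 2.82%), which are the same 102 regions. A peak was seen in all 3 GFP-cell libraries and no MAFG-cell library at 157 (25.7%), against 19.3% of all merged regions and 35.7% of the other regions of GFP cells. The opposite was seen at 0 of 612, which allows a share of up to 0.601% (upper bound of the exact 95% binomial interval), and at 2 of all 34223 merged regions (0.00584%). At 99 (16.2%) none of the 6 libraries had a peak, against 44.1% of all merged regions. Constant regions were wider than merged regions at large, with a median of 1672.5 bp against 751 bp. The anti-MITF lists were also longer in GFP cells. The part of width and list length in these shares was not tested. Seen from the other side, 1146 merged anti-MITF regions held a peak of all 6 anti-MITF lists. Of these, 103 (8.99%) met a constant anti-MAFG region, and 103 constant anti-MAFG regions (16.8%) met one of them.

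With the full lists, members with H3K4me3 carried anti-MITF more often than those without, in a comparison chosen after seeing the data. Among the 141 marked in either line the share (mean ± SD, n = 3) was 84.9 ± 5.37% for GFP cells and 28.1 ± 0.409% for MAFG cells, and among the 471 unmarked it was 65.8 ± 1.49% and 23.8 ± 1.69%. The mean difference within libraries was 11.7 points, higher in 6 of 6 libraries (exact sign-flip permutation p = 0.03125, adjusted 0.0625). Marked members were wider, with a median of 1965 bp against 1621 bp, and in a 500 bp window around the summit the difference was 7.79 points with an exact permutation p of 0.125. With equally long anti-MITF lists it was 4.10 points (exact permutation p = 0.0625), with equally long anti-MAFG lists 1.79 points (p = 0.75), and at a −log10 q of at least 5 it was 8.25 points (p = 0.25). The log2 ratio of marked over unmarked (mean ± SD, n = 3) was 0.37 ± 0.08 for GFP cells and 0.24 ± 0.12 for MAFG cells, and its difference between lines, −0.12 (SE 0.0831), gave an exact permutation p of 0.3.

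With the full lists, members ranked better in GFP cells carried anti-MITF more often than those ranked better in MAFG cells. The comparison was chosen after seeing the data. Members ranked better in GFP cells had shares (mean ± SD, n = 3) of 88.6 ± 3.04% for GFP cells and 29.4 ± 1.11% for MAFG cells, and members ranked better in MAFG cells of 51.3 ± 5.49% and 22.5 ± 4.396%. The mean difference within libraries was 22.1 points, higher in 6 of 6 (exact sign-flip permutation p = 0.03125, adjusted 0.0625). It was 37.2 ± 5.04 points (SD, n = 3) for GFP cells, against 6.90 ± 5.05 points (SD, n = 3) for MAFG cells, and the difference between these was not tested. In a 500 bp window it was 22.9 points, and with members ranked by recovered fragments 26.6 points, both with the same unadjusted p. With equally long anti-MITF lists it was 12.97 points (exact permutation p = 0.09375), without MAFG-cell anti-MAFG library 2 or 3 it was 18.8 or 18.6 points (p = 0.0625), and with equally long anti-MAFG lists, where 14 and 19 of 91 members were apart, it was −0.06 points (p = 1.0).

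**Figure D5:**
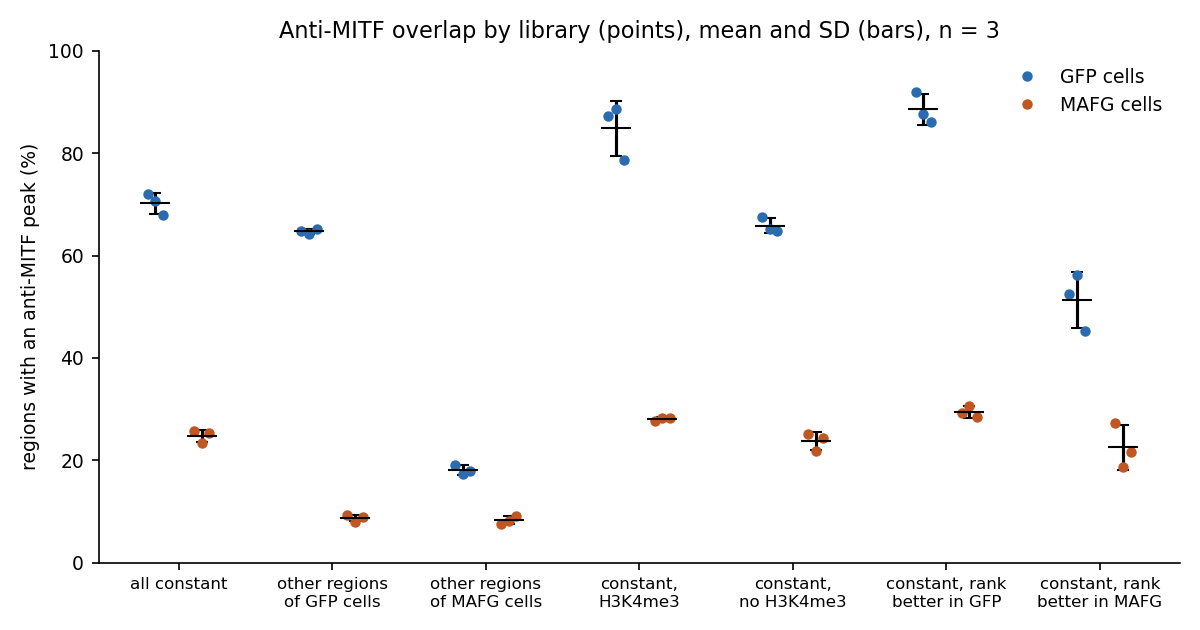
Share of regions with an anti-MITF peak (vertical axis, %) in each of the 6 anti-MITF libraries (points), with mean and SD (n = 3 for each line), for the constant regions, the comparison sets and subsets of the constant regions. Constant regions reach 70.2% in GFP cells and 24.8% in MAFG cells, and the other regions of GFP cells 64.8% and 8.72%.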

How the data were processed

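Peak lists of 14 of the 16 samples were used, and the 2 IgG samples were not analysed here. Per the submitters' processing notes, tools included cutadapt 1.8.1, Bowtie2 2.4.1, MACS2 2.1.1.20160309, ChIPseeker 1.32.1 and deepTools, with GRCh38 (hg38). The control and settings used in peak calling are not given in the sources used here. Each list holds 1 library, with the authors' fold enrichment (a ratio), −log10 p-value and −log10 q-value per peak as deposited. The lowest −log10 q was about 2.00.

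Overlap meant at least 1 bp. Genes and start sites came from RefSeq GRCh38.p14, and all listed symbols matched. Fragments and background at each summit were solved from the deposited fold and p as (pileup + 1) / (background + 1) with a Poisson tail and 1 scale per library. This matched 100.0% of peaks in the 12 anti-MAFG and anti-MITF libraries within 0.001 and is inferred, not stated by the authors.

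Shares per anti-MITF library were compared by exact permutation tests (Python 3.11.15, scipy 1.17.1). The procedures were tested on simulated data. Named regions were the 10 best by mean rank, the 8 with the largest gain and the 8 with the largest loss of rank among those apart, and all at listed genes. The members and lists were chosen with earlier results of these data known. The tests by H3K4me3 and by rank, the 500 bp window, and the variant without the chromosome 3 stretch were chosen after seeing the data. Alternatives tried were a −log10 q of at least 5, merging across 100 bp, equal list lengths, other overlap, distance and rank rules, and leaving out each library.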

Additional observations from a re-analysis of the deposited data

How the results depend on the processing

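The count of 612 was 615 with peaks up to 100 bp apart merged, 571 without chromosome 3 from 60 to 80 Mb, 356 at a −log10 q of at least 5 and 91 with equally long anti-MAFG lists, and 624 to 787 without 1 anti-MAFG library. Members with ranks apart numbered 276, and 163 and 33 at the stricter q and with equal lengths, which leave fewer members, and 318 to 421 without 1 library (421 without GFP-cell library 3). With fewer libraries in a line, ranks fall apart more easily, and the set of members also grows. The counts without 1 library are therefore not on a par with 276. Placed by percentile in the whole list, 275 were apart, 192 better in GFP cells and 83 better in MAFG cells. The H3K4me3 share in GFP cells was 18.5% at the stricter q, and 18.1% of members lay within 5000 bp of a gene end; the cause of the former was not tested.

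The anti-MITF difference between lines turned from −45.4 to 6.97 points with equally long anti-MITF lists, kept its direction under the other alternatives, and was −41.3 to −46.8 points without 1 library. The difference between constant and other regions fell from 10.8 to 8.95 points with equally long anti-MAFG lists (exact permutation p = 0.21875), where it turned for GFP cells (87.2% against 89.2%) and held for MAFG cells (33.3% against 13.5%); the cause was not tested. It was 9.62 to 12.4 points without 1 library; with 5 anti-MITF libraries the smallest p is 0.0625. The difference by rank turned to −0.0627 points with equally long anti-MAFG lists. Same-numbered libraries did not deviate together (correlations −0.02, −0.01 and −0.05), and with a replicate block the line differences of −45.4 points and 1.39 (log2) had an exact sign-flip permutation p of 0.25, the smallest for 3 pairs. Depth is known only through the recovered values.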
